A study of Mus musculus with 6 samples.

Results

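The mitochondrial apoptosis machinery was followed through 10 genes, namely 9 members of the BCL2 family (Bcl2, Bcl2l1, Mcl1, Bax, Bak1, Bok, Bcl2l11, Bid and Bad) and Moap1, the gene of the BAX-binding modulator of apoptosis 1. They are 10 of the 28879 genes in the deposited expression table, chosen by name from earlier results of these same libraries. Their difference between the groups is therefore given as a description, without a test. The study compared mouse blastocysts that were vitrified with a Cryotech kit and warmed (the Cryo libraries) with blastocysts that were never frozen (the Fresh libraries), with 3 RNA-seq libraries in each group. All embryos came from superovulated females 6 to 8 weeks old, given pregnant mare serum gonadotrophin and, 48 h later, human chorionic gonadotrophin, and were cultured for 3 days in human tubal fluid. The labels name the females as C57BL/6JNarl, while the series' design text names B6CBF1 embryos. Both groups share the hormone treatment and this culture, while the vitrified–warmed embryos alone also went through equilibration, vitrification and warming solutions and, in the methods for transfer, a further incubation in human tubal fluid after warming. The treatment label of every sample mentions embryo transfer, but the study's methods describe RNA from blastocysts before transfer. Each group was 1 pool of blastocysts divided into 3 aliquots, so the spread between libraries of a group covers library preparation and sequencing and not differences between embryos or litters.

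The BCL2 family controls whether the outer mitochondrial membrane is opened during apoptosis. BCL2, BCL-XL (from Bcl2l1) and MCL1 hold back death by binding their relatives. BAX and BAK1, and in a way less dependent on the others BOK, form the openings in the membrane. The BH3-only proteins BIM (from Bcl2l11), BID and BAD carry stress signals to other members of the family. MOAP1 binds BAX and promotes its activation, and belongs to the PNMA family, whose genes derive from a retrotransposon. In the mouse, embryos without Mcl1 die at about the time of implantation.

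Moap1 stood apart from the other 9 genes, with no exon fragment in any fresh library and 162 to 189 fragments in each vitrified–warmed library. Bok and Bax were higher, and Bcl2l1 and Bad lower, in every vitrified–warmed library than in any fresh library. To show the DNA around the genes that differed most, the promoter windows of Moap1, Bok and Bcl2l1 are given from RefSeq on GRCm38.p6, 250 bases before and 50 after an annotated transcript start, written along the gene's strand. Capitals mark any match on either strand to TGACGTCA (the cAMP response element), GGGCGG (the GC box), CCAAT (the CCAAT box), TATAAA (the TATA box) or CACGTG (the E-box). These motifs do not overlap each other in the windows shown.
Moap1, chr12:102743612-102743911 (minus strand): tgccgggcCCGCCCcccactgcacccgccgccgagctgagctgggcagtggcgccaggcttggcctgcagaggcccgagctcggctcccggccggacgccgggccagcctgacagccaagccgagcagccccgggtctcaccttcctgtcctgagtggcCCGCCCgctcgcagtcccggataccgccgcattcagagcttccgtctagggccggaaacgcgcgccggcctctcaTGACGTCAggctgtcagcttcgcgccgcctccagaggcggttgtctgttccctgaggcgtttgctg
Bok, chr1:93685325-93685624 (plus strand): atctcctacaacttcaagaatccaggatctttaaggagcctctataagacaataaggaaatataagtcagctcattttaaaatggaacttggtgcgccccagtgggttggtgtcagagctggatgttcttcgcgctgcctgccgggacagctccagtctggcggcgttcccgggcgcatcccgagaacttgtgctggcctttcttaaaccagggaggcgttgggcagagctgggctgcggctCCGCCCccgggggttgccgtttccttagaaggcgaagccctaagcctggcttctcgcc
Bcl2l1, chr2:152831679-152831978 (minus strand): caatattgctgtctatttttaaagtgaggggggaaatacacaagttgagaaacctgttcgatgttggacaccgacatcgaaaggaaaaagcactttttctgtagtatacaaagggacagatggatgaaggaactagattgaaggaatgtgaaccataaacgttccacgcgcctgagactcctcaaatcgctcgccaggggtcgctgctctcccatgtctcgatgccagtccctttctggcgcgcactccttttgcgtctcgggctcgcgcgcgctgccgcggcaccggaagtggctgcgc

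The 3 windows differed in composition. The Moap1 window was 72% G and C. It held the full cAMP response element 16 bases before the start, with GC boxes 242 and 91 bases before it. The window also covers the start of Tmem251, a gene 25 bases away on the opposite strand. The element lies between the starts of both genes, so it is not particular to Moap1. The Bok window (56.3% G and C) held 1 GC box 8 bases before the start, and the Bcl2l1 window (52.3%) held none of the 5 motifs. All 10 genes matched a RefSeq promoter entry, with 14 windows between them. Of the 10, 8 held a GC box in at least 1 window, 2 held CCAAT, 1 held the E-box, 1 (Moap1) held the cAMP response element and 0 held TATAAA. Among 32851 mouse promoter windows of 300 bases, the shares were 35.7% for the GC box, 37.4% for CCAAT, 7.15% for the E-box, 1.79% for the cAMP response element and 13.6% for TATAAA. These shares are per window, while the counts are per gene over all its windows, so they are not like measures. The motifs were chosen after the Moap1 window had been read, and a match describes letters in a window and not a bound site.

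The 6 libraries held 9093411 to 11843562 fragments in exons, and levels are given as CPM, the fragments of a gene scaled to the size of its library after trimmed-mean-of-M-values (TMM) normalization. Fewer cells of a type and less RNA per cell cannot be told apart in such pooled samples. The libraries carried blastocyst markers, since 8 of 8 trophectoderm, 8 of 8 epiblast and 5 of 6 primitive endoderm genes had fragments in every library. The summed level of the trophectoderm genes was 1485 to 1553 CPM in Fresh and 1725 to 1738 CPM in Cryo, that of the epiblast genes 2188 to 2229 and 2196 to 2289 CPM, and that of the primitive endoderm genes 621 to 632 and 690 to 711 CPM. A few genes made up much of these sums, among them Dppa3 (means of 1530 CPM in Fresh and 1552 in Cryo) and Gata6 (168 and 240). The edgeR test given below called 6 of 8 trophectoderm genes higher and 1 (Cdx2) lower, and 3 of 8 epiblast genes higher and 2 lower. Of 5 primitive endoderm genes tested, 1 (Gata6) was higher and 1 (Sox17) lower. Over all genes tested the shares were 31.6% higher and 32.8% lower. The 9 blood and immune markers summed to 3.68 to 5.15 CPM in Fresh and 14.5 to 19.3 CPM in Cryo. The 8 cumulus markers summed to 0.443 to 4.51 and 1.51 to 1.96 CPM, and the 8 uterine and decidual markers to 2.13 to 6.80 and 1.42 to 2.72 CPM. Fresh 1 had the highest of the fresh sums for both of these lists. It held fragments of 20086 genes, against 15558 and 15991 in Fresh 2 and 3 and 17563 to 17764 in Cryo. Exon fragments made up 63.2 to 63.6% of the library total behind the deposited FPKM values (fragments scaled for exon length and library total) in Fresh and 54.4 to 56.6% in Cryo. The part of these group differences in the results below was not tested.

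Differences between the groups were widespread. Of 12774 genes with enough fragments, 64.4% passed edgeR's quasi-likelihood test at a Benjamini-Hochberg adjusted p of 0.05, 4034 (31.6%) higher and 4188 (32.8%) lower in Cryo. With limma on log2(FPKM + 0.5) the split was 2647 higher and 5542 lower, and the median log2 fold change of all genes was −0.13 in place of −0.00. The groups did not overlap in CPM for 68.6% of the genes, 33.5% with Cryo above and 35.1% with Cryo below. Of the 10 genes, 9 had enough fragments for the fit, all but Bcl2. The fit called 3 of these 9 higher (Bax, Bok and Moap1) and 3 lower (Bcl2l1, Mcl1 and Bad), and made no call for Bcl2l11, Bak1 and Bid. The call was lost under 9 of 13 other settings for Mcl1, 4 for Bax and 2 for Bad, and Bcl2l11 was called lower under 2. The groups did not overlap for 3 genes with Cryo above and 4 with Cryo below. The rule that chose the genes used this contrast, so nothing is read from these calls or shares. The median log2 fold change of the 9 genes was −0.09, with Moap1 at its lower bound.

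**Figure D1:**
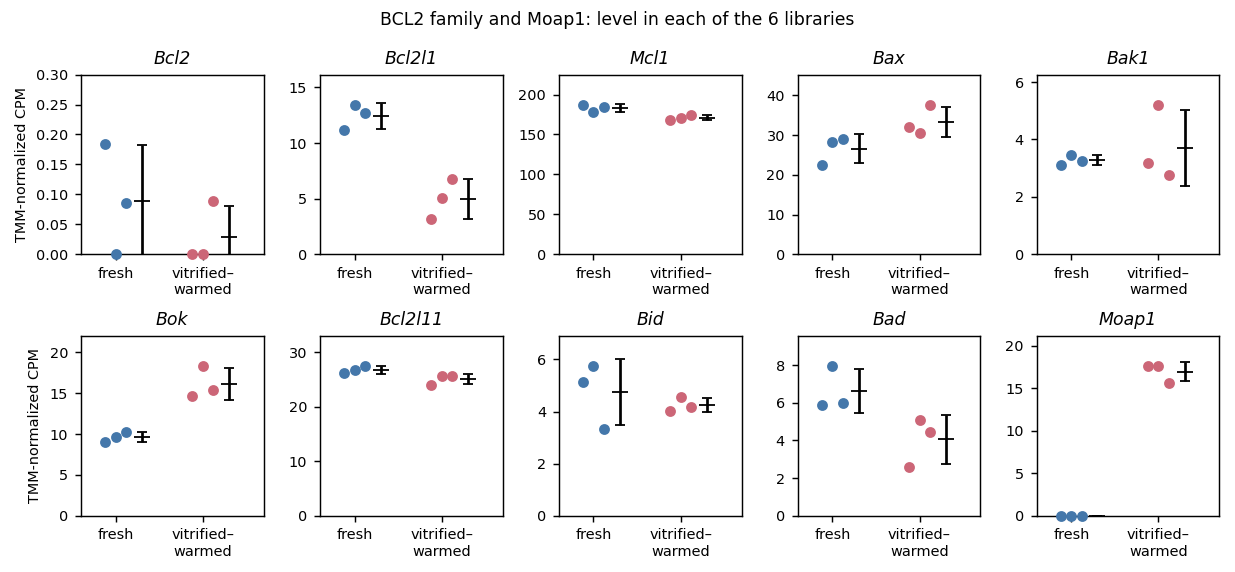
TMM-normalized CPM (y axis, linear from 0, a separate scale for each gene) of the 10 genes in the 3 fresh and 3 vitrified–warmed libraries, replicates 1 to 3 from left to right, with the mean and SD beside each group. Bars that would pass below 0 end there. The 3 fresh points of Moap1 lie at 0 and its vitrified–warmed points between 15.6 and 17.6, while the groups of Bcl2, Bak1 and Bid overlap.

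Among the anti-apoptotic genes of the set, Bcl2l1 was the one that differed clearly. It had 121, 152 and 148 fragments in Fresh 1, 2 and 3 and 34, 47 and 76 in Cryo 1, 2 and 3. In CPM this was 11.1, 13.5 and 12.7 against 3.17, 5.11 and 6.75, with means of 12.4 ± 1.19 and 5.01 ± 1.79 (SD, n = 3). Every vitrified–warmed library lay below every fresh one, and Cryo 1 was the lowest. The log2 fold change was −1.30 (SE 0.20), a level 2.47-fold lower in Cryo. The gene lies on chromosome 2, 152758732 to 152832581 (GRCm38, minus strand), and gives the long protective form BCL-XL and a short pro-apoptotic form by splicing. The gene-level counts do not separate these forms. The RefSeq transcript start of the promoter window printed above lies 853 bases inside the gene start of the deposited table. The GENCODE M21 annotation gives Bcl2l1 a shorter span, 152780668 to 152831728.

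Mcl1, whose short-lived product is required in the early mouse embryo, was by far the most abundant of the anti-apoptotic genes in both groups. It lies on chromosome 3, 95658368 to 95663179 (plus strand). Its levels were 188, 178 and 185 CPM in Fresh 1, 2 and 3 and 168, 171 and 175 CPM in Cryo 1, 2 and 3. The groups did not overlap, but the log2 fold change was only −0.10 (SE 0.04). Bcl2, the founding member of the family (chromosome 1, 106538178 to 106714290, minus strand), was close to absent. It had 2, 0 and 1 fragments in Fresh and 0, 0 and 1 in Cryo, too few for a fold change, so a difference was not detectable at this depth.

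Among the effector genes, Bok differed most. It lies on chromosome 1, 93685694 to 93695762 (plus strand), and its product is kept low in healthy cells by degradation at the endoplasmic reticulum. Bok had 98, 109 and 119 fragments in Fresh 1, 2 and 3 and 157, 169 and 173 in Cryo 1, 2 and 3. Its levels were 9.01, 9.65 and 10.2 CPM against 14.7, 18.4 and 15.4 CPM. The means were 9.62 ± 0.592 and 16.1 ± 1.97 CPM (SD, n = 3), a log2 fold change of 0.74 (SE 0.13) or 1.67-fold. The highest fresh library lay well below the lowest vitrified–warmed one.

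Bax, which moves to mitochondria when activated, lies on chromosome 7, 45461695 to 45466903 (minus strand). It had 244, 320 and 338 fragments in Fresh and 342, 281 and 424 in Cryo, or 22.4, 28.3 and 29.0 against 31.9, 30.5 and 37.7 CPM. The groups were separated by a narrow margin, between Fresh 3 and Cryo 2, and the log2 fold change was 0.33 (SE 0.11). On the FPKM scale the groups overlapped, at 15.5 to 19.7 in Fresh and 18.2 to 23.0 in Cryo. The GENCODE M21 annotation places Gm45808 (45465984 to 45486811) over part of Bax on the same strand. Gm45808 is not an entry of the deposited table, and fragments from it cannot be told apart from Bax in its counts. The log2 fold change was 0.22 without Fresh 1 and 0.25 without Cryo 3, which both ended the call.

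Bak1, the effector that sits in the mitochondrial membrane already in healthy cells, lies on chromosome 17, 27019812 to 27028839 (minus strand). It had 34, 39 and 38 fragments in Fresh and 34, 48 and 31 in Cryo. Cryo 2 was above and Cryo 3 below all fresh libraries. The log2 fold change was 0.16 (SE 0.27, 95% interval −0.37 to 0.70), so a difference in either direction was not resolved. The whole gene lies within Ggnbp1 on the opposite strand, which had 12, 7 and 9 fragments in Fresh and 1, 0 and 5 in Cryo. Because the counting is not stated to use strand, reads of the pair cannot be separated with certainty.

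Of the 3 BH3-only genes, Bad differed in level while Bcl2l11 and Bid were close between the groups. Bad, whose product is held by 14-3-3 proteins when growth factors are present, lies on chromosome 19, 6941861 to 6951905 (plus strand). It had 64, 90 and 70 fragments in Fresh 1, 2 and 3 and 28, 47 and 50 in Cryo 1, 2 and 3. Its levels were 5.89, 7.97 and 6.00 CPM against 2.61, 5.11 and 4.44 CPM, a log2 fold change of −0.72 (SE 0.23) or 1.64-fold lower. The groups did not overlap, with Fresh 2 the highest and Cryo 1 the lowest library. Without Fresh 2 the log2 fold change was −0.56 and without Cryo 1 it was −0.46, which both ended the call. Bad shares 590 bases with Gpr137 on the opposite strand, which had 62, 45 and 42 fragments in Fresh and 62, 44 and 53 in Cryo.

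Bcl2l11, the gene of BIM, lies on chromosome 2, 128126038 to 128162547 (plus strand). Its levels were 26.1, 26.7 and 27.5 CPM in Fresh and 24.0, 25.6 and 25.7 CPM in Cryo. The groups were separated by a small gap, with a log2 fold change of −0.09 (SE 0.08, 95% interval −0.26 to 0.07). With limma on log2(FPKM + 0.5) it was −0.19, on a scale whose median over all genes was −0.13. Bid, which is cut by caspase-8 to link death receptors with mitochondria, lies on chromosome 6, 120893119 to 120917142 (minus strand). In the GENCODE M21 annotation it overlaps Bcl2l13 on the opposite strand, which the deposited table places 276 bases away. The levels of Bid were 5.15, 5.76 and 3.34 CPM in Fresh and 4.01, 4.56 and 4.18 CPM in Cryo. The vitrified–warmed values lay within the fresh range, which Fresh 3 extended downwards, and the log2 fold change was −0.16 (SE 0.23, 95% interval −0.61 to 0.29).

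Moap1 had 0 fragments in each of Fresh 1, 2 and 3 and 189, 162 and 176 fragments in Cryo 1, 2 and 3. In Cryo this was 17.6, 17.6 and 15.6 CPM, or 17.0 ± 1.14 (SD, n = 3). Set against 3 fragments over the 3 fresh libraries together, the limit that a count of 0 allows, Moap1 was at least 191-fold higher in Cryo. This bound covers counting error only. Leaving out 1 fresh library lowered it to between 125-fold and 130-fold, since less depth was then left behind the 0. Moap1 was the 1 gene of the table with a mean of at least 50 fragments in Cryo and none in any fresh library. At a mean of at least 10 fragments there were 124 such genes, and at a mean of at least 1 there were 735. In the opposite direction, 212 genes had a mean of at least 10 fragments in Fresh and none in Cryo, and 2 had a mean of at least 50.

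The deposited table places Moap1 on chromosome 12, 102739830 to 102743661 (minus strand), with 3 exons and 3728 exonic bases. GENCODE M21 gives a Moap1 of 1432 bases, from 102742230 to 102743661, and places Gm28051 (102719975 to 102757765) and Gm20604 (102741732 to 102758672) over it on the same strand. These longer genes are not entries of the deposited table, and fragments from them cannot be told apart from Moap1 in its counts. The nearest listed gene was Tmem251, 25 bases away on the opposite strand, with 15, 5 and 12 fragments in Fresh and 12, 20 and 7 in Cryo. Its groups overlapped and it did not pass the test. AK010878, 9613 bases away on the strand of Moap1, had 41, 42 and 51 fragments in Fresh and 72, 69 and 90 in Cryo, a log2 fold change of 0.90 (SE 0.18, edgeR adjusted p = 4.01e-04). Ubr7, which lies beyond it, had 276, 279 and 299 against 278, 260 and 332 fragments, and Itpk1, on the other side, had 46, 56 and 47 against 27, 7 and 57. Neither passed the test.

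**Figure D2:**
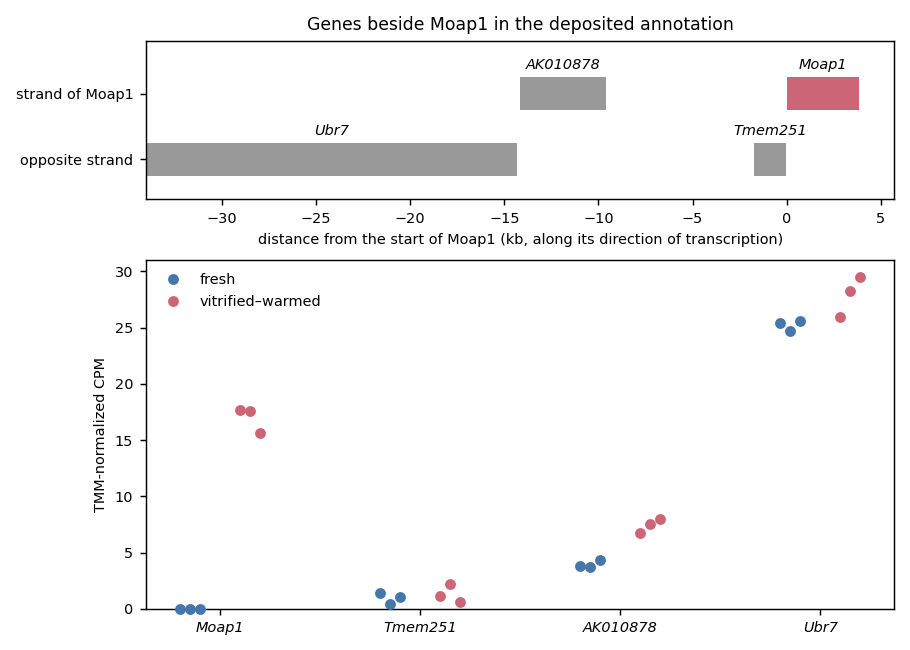
Upper panel, positions of Moap1 and listed genes upstream of it along its direction of transcription (x axis, kb from the Moap1 start; Ubr7 runs past the left edge). Lower panel, TMM-normalized CPM (y axis, linear) of the same genes in each fresh and vitrified–warmed library. The Moap1 points go from 0 in Fresh to 15.6 to 17.6 in Cryo, AK010878 is higher in every Cryo library, and the groups of Tmem251 overlap.

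Other genes were compared with Moap1 by Pearson's r of log2(CPM + 0.5) over the 6 libraries, among 12116 genes with a mean of at least 1 CPM. The 3 most alike were Fbxw14, LOC105246659 and Tor1aip1, with r of 0.9998, 0.9997 and 0.9996. Fbxw14, an F-box gene, had 0 fragments in every fresh library and 53, 42 and 50 in Cryo. LOC105246659 likewise had 0 fragments in Fresh and 32, 28 and 34 in Cryo. Tor1aip1, which encodes an inner nuclear membrane protein, was present in both groups, with 226, 238 and 242 fragments in Fresh and 403, 354 and 423 in Cryo. The 6 libraries form 2 clusters by group, so a high r reflects the step between them.

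Levels of different genes were compared per length, as FPKM. In Fresh the order was Mcl1 (30.0 ± 1.10, SD, n = 3), Bax (18.1 ± 2.28), Bok (4.23 ± 0.229), Bad (2.73 ± 0.462), Bcl2l1 (1.60 ± 0.136), Bcl2l11 (1.50 ± 0.032), Bid (1.30 ± 0.343) and Bak1 (1.03 ± 0.042), followed by Bcl2 (0.0073 ± 0.0076) and Moap1 at 0. The ranges of neighbours overlapped from Bcl2l1 to Bak1 and between Bcl2 and Moap1. In Cryo the first 3 genes were again Mcl1 (24.9 ± 0.688), Bax (20.2 ± 2.51) and Bok (6.29 ± 0.693). Moap1 came next at 2.54 ± 0.152 FPKM, above Bad (1.49 ± 0.465), Bcl2l11 (1.25 ± 0.048), Bak1 (1.03 ± 0.352) and Bid (1.03 ± 0.058), whose neighbouring ranges overlapped. Bcl2l1 was at 0.572 ± 0.208, below all of these, and Bcl2 at 0.0022 ± 0.0037. Moap1 thus took the last place in Fresh and the fourth in Cryo, and Bcl2l1 moved from the fifth place to the ninth. The FPKM of Moap1 rests on the 3728 exonic bases of the deposited table, while GENCODE M21 gives it a span of 1432 bases. Its place in Cryo depends on the length used.

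Among the 10 genes, the balance of effector to anti-apoptotic transcripts was higher in every vitrified–warmed library than in any fresh library. The ratio of Bax to Bcl2l1 in FPKM was 10.7, 11.2 and 12.1 in Fresh 1, 2 and 3 and 53.4, 31.7 and 29.6 in Cryo 1, 2 and 3. Cryo 1, the library with the least Bcl2l1, had the highest ratio, and without it the Cryo mean was 30.7 in place of 38.2. The summed FPKM of Bax, Bak1 and Bok over that of Bcl2, Bcl2l1 and Mcl1 was 0.629, 0.798 and 0.791 in Fresh and 1.05, 1.06 and 1.13 in Cryo. Mcl1 made up 94.4 to 95.5% of the anti-apoptotic sum in Fresh and 97.0 to 98.5% in Cryo. Bok made up 17.2 to 19.6% of the effector sum in Fresh and 20.3 to 26.4% in Cryo. These ratios were built from the genes chosen by their values, so they describe the same differences and add no test.

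**Figure D3:**
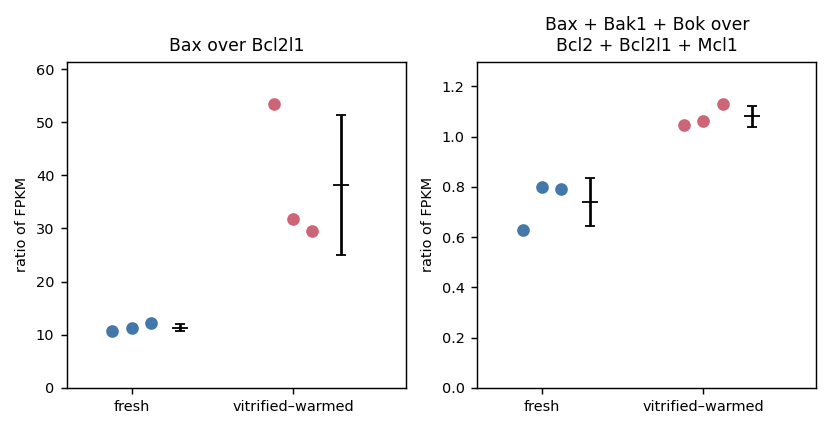
Ratio of FPKM (y axes, linear from 0) of Bax to Bcl2l1 on the left, for each library. On the right is the ratio of summed Bax, Bak1 and Bok to summed Bcl2, Bcl2l1 and Mcl1. The mean and SD stand beside each group of 3. All vitrified–warmed points lie above all fresh points, at 29.6 to 53.4 against 10.7 to 12.1 on the left and at 1.05 to 1.13 against 0.629 to 0.798 on the right.

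The surroundings of these 10 genes are given by 5 further lists of apoptosis genes, whose genes were tested across all 12774 genes. Of 9 other multidomain BCL2 relatives, 5 were tested, 3 rose and 1 fell, beside 31.6% and 32.8% of all genes tested. The median log2 fold change was 0.64 against −0.00 for all genes. Among the genes that rose, Bcl2l10 passed the count filter through its Cryo fragments alone. With a mean above 1 FPKM, 4 genes were left, Bcl2l10 not among them, with a median of 0.29. Of these, 2 rose and 1 fell, beside 2742 and 2789 of 8394 genes. Bcl2l13, the gene of the mitophagy receptor BCL-RAMBO, rose from 34.2, 34.3 and 32.0 to 51.9, 53.6 and 51.0 CPM, a log2 fold change of 0.64 (SE 0.07, edgeR adjusted p = 1.03e-06). Bcl2l12 rose by 0.82 on the log2 scale (SE 0.21, edgeR adjusted p = 0.0030), and Bcl2l14, the gene of BCL-G, fell by 0.53 (SE 0.10, edgeR adjusted p = 3.70e-04). Bcl2l10, known in the mouse from ovary and oocytes, had 2, 0 and 0 fragments in Fresh and 28, 18 and 19 in Cryo, a ratio of 35.3 with a 95% counting interval of 9.38 to 298 (exact binomial). The protective Bcl2l2 was at 11.1, 13.4 and 12.9 CPM in Fresh and 10.5, 10.9 and 12.8 CPM in Cryo and did not pass the test. The near-identical Bcl2a1a and Bcl2a1d had no fragment in any library, and Bcl2a1b and Bcl2l15 were too low to be tested.

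Of 9 other BH3-only genes, 6 were tested, and 4 fell while 0 rose, beside 32.8% and 31.6% of all genes tested, with a median log2 fold change of −0.20. The count of 0 rises held at an unadjusted edgeR p under 0.05 and with DESeq2, and became 1 (Hrk) when no filter was set on low counts and without Fresh 1, Fresh 2, Fresh 3 or Cryo 2. The genes that fell were Bnip1, which is known mainly for membrane fusion at the endoplasmic reticulum, the mitophagy receptors Bnip3 and Bnip3l, and the autophagy gene Becn1. Bnip1 fell from 14.99, 14.3 and 14.8 to 7.28, 9.24 and 9.78 CPM (log2 fold change −0.74, SE 0.13, edgeR adjusted p = 1.48e-04), and Becn1 fell by 0.47 on the log2 scale (SE 0.11, edgeR adjusted p = 0.0012). Bnip3 fell by 0.23 (SE 0.06). Pmaip1, the gene of the MCL1-binding NOXA, was at 28.9, 34.0 and 29.6 CPM in Fresh and 30.0, 24.5 and 30.1 CPM in Cryo and did not pass the test. Bik, with 8, 13 and 17 fragments in Fresh and 2, 2 and 2 in Cryo, and Hrk, with 3, 0 and 0 against 12, 4 and 13, fell under the count filter.

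Of the PNMA family genes, relatives of Moap1, 8 were in the table and 2 were tested. Pnmal2 had no fragment in any fresh library and 21, 19 and 18 in Cryo, so it passed the count filter through Cryo alone. Against 3 fragments over the fresh group it was at least 21.1-fold higher, and at least 13.9-fold when 1 fresh library was left out. Pnma5 was at 17.1, 19.0 and 18.5 CPM in Fresh and 16.7, 15.5 and 16.9 CPM in Cryo and did not pass the test. The other 6, Pnma1 among them, were near 0 in both groups.

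All 10 genes for partners and turnover of MOAP1, BAX, BAK1, MCL1 and BAD were tested, and 3 rose, 3 fell and 4 did not pass, beside 31.6% higher and 32.8% lower among all genes tested, with a median log2 fold change of 0.02. Rassf1, whose RASSF1A product binds MOAP1, rose from 11.04, 8.86 and 10.5 to 16.3, 13.8 and 19.1 CPM (log2 fold change 0.70, SE 0.14, edgeR adjusted p = 3.77e-04). Fbxw7, the gene of a ubiquitin ligase subunit that acts on MCL1, rose by 0.41 (SE 0.13). Its edgeR adjusted p was 0.0143, and the call was lost without Fresh 2, without Fresh 3 or without Cryo 1. Usp9x, which removes ubiquitin from MCL1, rose by 0.13 (SE 0.04), and the call was lost without Fresh 1 or Fresh 2 and the sign turned with limma on FPKM. March5 fell by 0.36 (SE 0.06, edgeR adjusted p = 1.40e-04) and Ywhaz, a 14-3-3 protein of the kind that holds BAD, fell by 0.17 (SE 0.03). Huwe1, a ligase for MCL1, fell by 0.09 (SE 0.03), and the call was lost under 7 of 13 other settings, among them without Fresh 2, Fresh 3, Cryo 1 or Cryo 3. Trim39, which in human cells slows the breakdown of MOAP1, and the BAK1 partner Vdac2 were among the 4 that did not pass, with log2 fold changes of −0.02 (SE 0.09) and −0.07 (SE 0.05).

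For the apoptosome and the factors released from mitochondria, 8 genes were tested, and 1 rose, 5 fell and 2 did not pass, beside 31.6% higher and 32.8% lower among all genes tested. Casp9, the initiator caspase of the apoptosome, fell from 11.04, 9.83 and 9.34 to 5.04, 4.78 and 4.62 CPM (log2 fold change −1.06, SE 0.16, edgeR adjusted p = 2.46e-05). Aifm1, the gene of apoptosis-inducing factor, fell by 0.77 (SE 0.08, edgeR adjusted p = 4.84e-07), and the nuclease gene Endog fell by 0.95 (SE 0.23). Apaf1 and Diablo fell by 0.25 (SE 0.06) and 0.38 (SE 0.10). Cycs, the gene of cytochrome c, rose by 0.16 (SE 0.06, edgeR adjusted p = 0.0246), a call lost without Fresh 1, Fresh 3 or Cryo 1 and a sign that turned with limma on FPKM. Xiap, the gene of an inhibitor of caspases, was at 124, 133 and 123 CPM in Fresh and 132, 124 and 133 CPM in Cryo, and with Htra2 it did not pass.

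**Figure D4:**
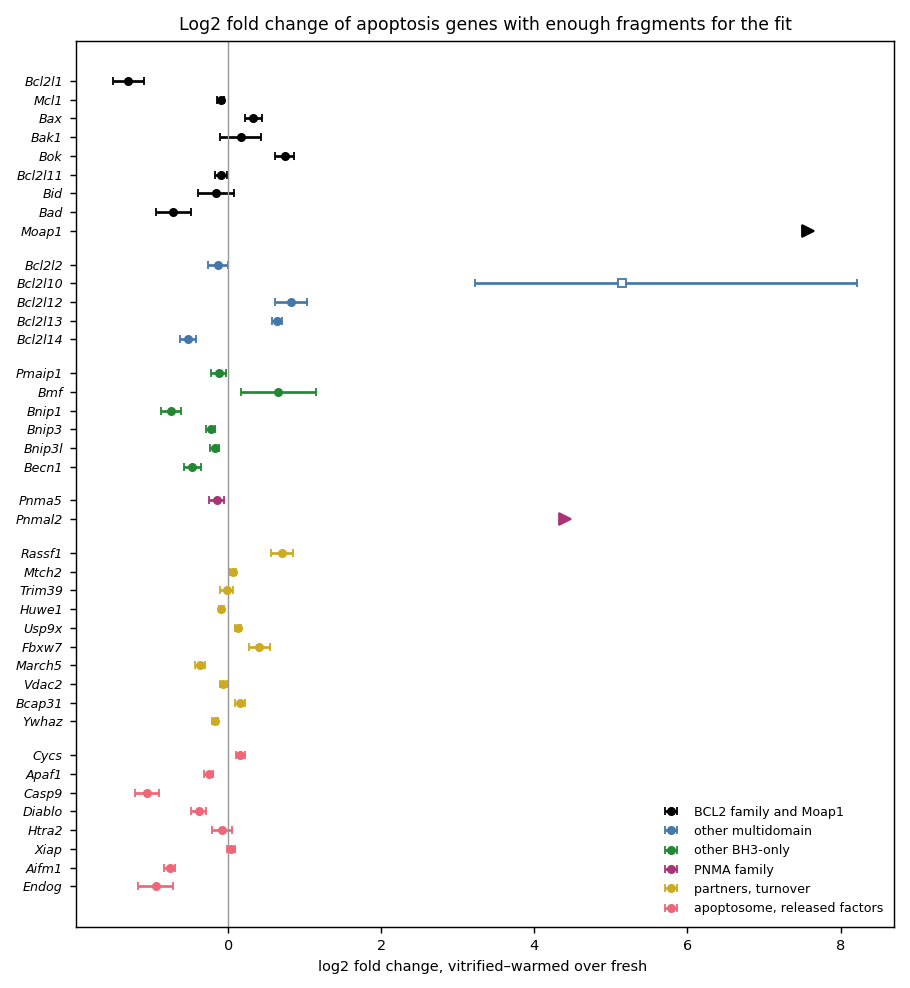
Log2 fold change of Cryo over Fresh (x axis) for the 9 tested genes of the set (black) and the tested genes of the 5 other lists, with bars of 1 standard error. Triangles are lower bounds for Moap1 and Pnmal2, which had no fragment in Fresh, and the open square is the Bcl2l10 ratio with its 95% counting interval. Of the marks, the Moap1 bound lies farthest to the right and Bcl2l1 farthest to the left, and the interval of Bcl2l10 reaches beyond the Moap1 mark.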

How the data were processed

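RNA-seq libraries were made with the Ovation SoLo kit, and the authors trimmed and aligned the reads to GRCm38 in CLC Genomics Workbench. The deposited table gives whole-number counts of fragments in exons, not normalized, and FPKM as the authors computed it, for 28887 rows, of which 8 name no gene. Its columns of p-values and fold changes were not used. The members and gene lists were chosen with earlier results of these data known. Counts were filtered with filterByExpr, TMM-scaled and tested with the robust quasi-likelihood test of edgeR 4.0.16 (R 4.3.3), Cryo against Fresh, with Benjamini-Hochberg adjustment over 12774 genes. No replicate block was used. A gene with 0 fragments in a group was set against 3 fragments over that group. Alternatives were DESeq2 1.42.0, no filter, a mean above 1 FPKM, limma 3.58.1 on log2(FPKM + 0.5) and log2(FPKM + 0.1), scaling by 12 housekeeping genes, a replicate block and each library left out, 13 settings in all. Intervals use a normal approximation. P-values measure the spread between aliquots of 1 pool per group.

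Named were the 10 members, every tested gene of a list with up to 3 tested, up to 3 genes per direction with the smallest adjusted p in each other list, the genes that overlap or adjoin a member, and the 3 most like Moap1. Other list genes were named after their values were seen. Promoter sequences are from RefSeq. Some genes of the apoptosome list are not reported here for a reason unrelated to their values, its counts leave them out, and no median is given for it.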

Additional observations from a re-analysis of the deposited data

How the results depend on the processing

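Across the 13 other settings, the log2 fold changes of the members, given as a description, were −1.59 to −0.98 for Bcl2l1 and 0.52 to 0.82 for Bok. Bax ranged from 0.16 to 0.39, Mcl1 from −0.27 to −0.06 and Bad from −0.90 to −0.46. Bak1 ranged from −0.14 to 0.36 and Bid from −0.36 to 0.005, so both changed sign. Leaving out each library gave 1 to 3 members called lower in place of 3, with 1 without Cryo 1. Over all genes, the mean above 1 FPKM left 8394 genes, of which 2789 were called lower, and limma on log2(FPKM + 0.5) called 2647 higher. In the other lists, no filter gave 1 BH3-only gene called higher (range 0 to 1 on leaving out each library), the mean above 1 FPKM left 0 PNMA genes called higher because Pnmal2 was no longer tested, and both limma fits called 1 PNMA gene (Pnma5) lower. Partner and turnover genes called higher numbered 5 with the mean above 1 FPKM and with housekeeping scaling, 1 with both limma fits and 2 to 5 on leaving out each library, with 5 without Cryo 2. Apoptosome genes called higher, 1 (Cycs) in the main result, numbered 0 with both limma fits and 0 to 1 on leaving out each library. The sign turned for Cycs (−0.017 and −0.017), Usp9x (−0.043 and −0.044) and Bub1 (−0.16 and −0.16) with limma on log2(FPKM + 0.5) and log2(FPKM + 0.1), scales on which the median gene was at −0.13 and −0.16. In the same fits Bak1 turned as well, to −0.020 and −0.038, without a call. The cause of the other changes was not tested.

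The replicate numbers are not stated to pair the samples, and the deviations of same-numbered libraries correlated at −0.012, −0.029 and 0.033. With the replicate block 3890 genes were called higher and 4073 lower, and 3 members higher and 2 lower, since Mcl1 was not called. Depth limited Bcl2, with 4 fragments in all, and the bound for Moap1.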

Other observations

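Genes beside the members also differed between the groups, as did 64.4% of all 12774 genes tested. Nothing particular to the places of the members is therefore read from them. Acoxl, an acyl-CoA oxidase-like gene that overlaps the first 215 bases of Bcl2l11 on the same strand, had 24, 23 and 29 fragments in Fresh and 0 in each vitrified–warmed library. It passed the count filter through Fresh alone, and was at least 23.3-fold lower against 3 fragments over the Cryo group. Ftl1, the gene of the ferritin light chain 1808 bases from Bax, rose from 319, 342 and 343 to 480, 514 and 488 CPM, a log2 fold change of 0.56 (SE 0.04, edgeR adjusted p = 2.61e-08). Stk25, a kinase gene beside Bok, fell from 43.2, 43.3 and 40.2 to 20.3, 18.8 and 19.1 CPM, a log2 fold change of −1.12 (SE 0.08, edgeR adjusted p = 2.46e-08), while Bok itself was higher. Thap4, on the other side of Bok, had a log2 fold change of 0.18 (SE 0.07), and Kdsr, beside Bcl2, of 0.19 (SE 0.08). Thap4 lost its call under 7 of 13 other settings, among them without Fresh 1, Fresh 2 or Cryo 1, and Kdsr under 9, among them without each library except Cryo 2. Zbtb9, beside Bak1, fell by 0.97 on the log2 scale (SE 0.13), and Plcb3, beside Bad, rose by 0.45 (SE 0.06). Id1, the gene nearest to Bcl2l1 on its left, had 13, 7 and 2 fragments in Fresh and 0 in each Cryo library and was under the count filter. Cox4i2, which overlaps Bcl2l1, had no fragment in any library. Tpx2, the spindle gene on the other side of Bcl2l1, fell by 0.32 (SE 0.04). Ensa, beside Mcl1, rose by 0.33 (SE 0.10), a call lost under 2 of 13 other settings. Itpr3, an inositol trisphosphate receptor gene beside Bak1, rose by 0.19 (SE 0.08), a call lost without Fresh 2, Fresh 3 or Cryo 2. LOC105244289, beside Bcl2l11, had 3, 2 and 3 fragments in Fresh and 10, 10 and 13 in Cryo (log2 fold change 2.11, SE 0.57). It passed the count filter through its Cryo fragments alone, and its call was lost under 2 of 12 other settings. Bub1 and Mical3 did not pass the test. Adamtsl4, beside Mcl1, with 13, 8 and 13 against 2, 5 and 1 fragments, Dhdh, beside Bax, with 5 against 7 in all, and Kcnk4, beside Bad, with 9 against 7 in all, were under the count filter. LOC105246678, beside Bcl2, had 1 fragment in all, and Mir3473f and LOC105246679, within Bcl2, and LOC105244287, which overlaps Bcl2l11, had 0.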
